A study of Rattus norvegicus with 16 samples.

Results

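Mammary glands of female Wistar Han rats at postnatal day (PND) 50 were compared with glands at PND35, in offspring of dams that had been given vinclozolin alone. Vinclozolin is a fungicide whose metabolites block the androgen receptor. The members are the 4 arrays whose titles give vinclozolin without a second compound, 2 at day 50 and 2 at day 35, of 16 arrays in all, and every array held RNA pooled over 5 animals. The other 12 arrays cover the mixture of vinclozolin and genistein, genistein alone and untreated controls, each with 2 pools at PND50 and 2 at PND35. Genistein, an isoflavone of soy, is a ligand of estrogen receptors.

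All groups shared the strain, the sex and a purified diet free of phytoestrogens. Vinclozolin dams received 1 mg of vinclozolin per kg of body weight per day by gavage between gestational day 1 and weaning at PND 21, mixture dams received 1 mg/kg/day of each compound, genistein dams 1 mg/kg/day of genistein, and controls neither. Offspring were pubertal or cycling females, killed weeks after dosing had ended. The labels describe 1 female per litter but also 15 dams per group and 20 offspring per treatment, so some litters would have given more than 1 animal, and which pools share a litter is not stated. RNA came from whole glands, so every value sums over epithelium, fat, blood, immune cells and any skin or muscle taken with the gland. In such bulk RNA, fewer cells of a type and less RNA per cell cannot be told apart. The 2 pools of a group are called biological replicates in the titles, so the p-values rest on how far pools differed and not on how far animals did.

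The gland at these ages is a tree of ducts, with an inner luminal and an outer basal epithelium, growing through a fat pad. Ovarian cycles add side branches and small alveolar buds, which express some milk genes before any pregnancy. The overlying skin holds hair follicles that alternate between growth and rest. In a growing follicle the inner root sheath, a sleeve around the forming hair, makes its own set of keratins, the hair shaft makes others together with keratin-associated proteins, and the surface epidermis uses yet other keratins.

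The values are log2 intensities deposited by the authors, with 1 value per probe set and array. A gene entered the tests if its mean over 16 arrays exceeded 5.661 on the log2 scale, the 25th percentile of all probe sets, which left 11796 genes. The PND50 pools were alike (Pearson r = 0.9963 over all probe sets, SD of the difference between pools 0.177 on the log2 scale). The PND35 pools were less alike (r = 0.9893, SD 0.303) than the pools of any other group, where the SD lay between 0.17 and 0.206. In the label check, the luminal keratin gene Krt8 stood at 9.98 and 9.85 in the PND50 pools, against 9.91 and 9.86 in the PND35 pools. Adipoq, the adiponectin gene of fat cells, stood at 12.56 and 12.50 at PND50 and at 12.79 and 12.46 at PND35, so luminal and fat markers were present at both ages.

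PND35 pool 2 stood apart in a group of genes of its own. In that pool 56 genes lay more than 1 log2 unit above the next highest of the 16 pools, 25 of them more than 2 units, against 8 and 0 genes in PND35 pool 1 and 1 and 0 in each PND50 pool. Among the other groups the highest count above 1 unit was 17, in mixture PND35 pool 2. These genes, singled out after their values were seen, included Cyp2b15, a cytochrome P450, at 5.20 and 5.33 in the PND50 pools, against 5.96 and 11.54 in the PND35 pools. Mup5, a major urinary protein that binds pheromones, had 6.56 and 7.04 at PND50, against 7.46 and 12.86 at PND35. Hsd3b2, a steroid dehydrogenase, had 6.30 and 6.47 at PND50, against 6.55 and 10.58 at PND35. With 1 high pool of 2 at PND35, none of these 3 passed the limma test (adjusted p = 0.126, 0.139 and 0.181), and 6 of the 56 genes did. Where this pool carried a change, the value without it is given as well.

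In the limma test 328 of the 11796 genes (2.78%) differed between PND50 and PND35 after vinclozolin at an adjusted p under 0.05. Of these, 135 were higher at PND50 (1.14% of the genes tested) and 193 lower (1.64%). Both shares belong beside the counts called in each gene list below. The share of all genes with a positive or negative change after vinclozolin was not counted. The median log2 change was 0.46 among the higher and -0.53 among the lower genes, against 0.00253 over all genes tested, and the median standard error (SE) was 0.0941. The pools of both ages did not overlap in any called gene, while 24.4% of all genes tested had no overlap with PND50 higher and 24.0% with PND50 lower. After quantile normalization the count was 363 genes, 196 of them higher and 167 lower. With only the 4 vinclozolin arrays in the fit it was 25 genes, 1 higher and 24 lower. The count was 67 genes without PND50 pool 2 and 120 without PND50 pool 1, and it was 197 without either mixture PND50 pool and 200 without either control PND50 pool, which enter only through the shared estimate of the spread.

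In 106 of the 193 lower genes, both PND35 vinclozolin pools lay above all 14 other pools of the series, a position held by 1.87% of all genes tested. A gene called lower has high PND35 vinclozolin pools by the call itself, so both shares are descriptions. In controls, which share no array with the vinclozolin pools, the age change was negative in 123 of the 193 genes and in 39 of the 106, beside 49.3% of all genes. Of the 135 higher genes, 129 had a positive change in controls (50.7% of all genes did) and 124 in the mixture, for which the share over all genes was not counted. Both PND50 vinclozolin pools lay above the other 14 in 32 of the 135, against 0.966% of all genes. The call itself favours that position as well.

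**Figure D1:**
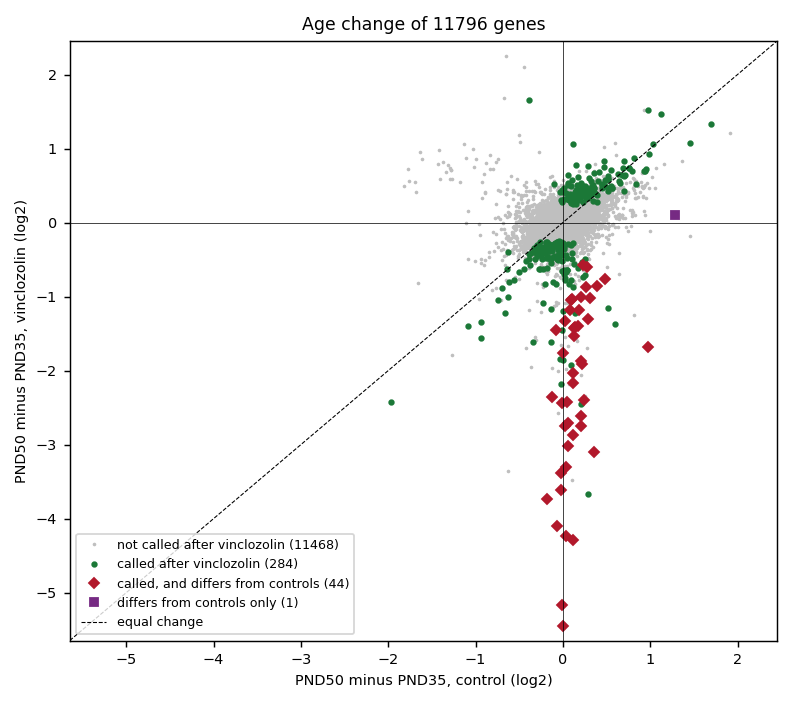
Log2 age change (PND50 minus PND35) of the 11796 genes after vinclozolin (vertical axis) and in controls (horizontal axis), each from 2 pools per age. Red diamonds are genes called after vinclozolin whose change also differed from that of controls, and they run down the vertical axis near 0 for controls, to -5.45 for Krt25.

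The lowest changes were mostly those of inner root sheath and hair shaft genes. The 8 tested inner root sheath genes comprise 6 keratins and 2 enzymes, Tgm3 and Padi3, that cross-link or citrullinate proteins of the sheath. All 8 fell (1.64% of all genes did), with changes between -5.45 and -1.18 and a median of -3.42, against medians of 0.11 in the mixture, 0.07 with genistein and 0.10 in controls. In each of the 8, both PND35 vinclozolin pools lay above the other 14. Of the 11 genes listed, 8 were on the array, and 3 of them had a mean under the filter in the other 14 pools and were tested because of the PND35 vinclozolin pools, so the count describes the genes tested. Krt71, Krt74 and Tchh were not analysed here.

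The bases before the transcript start of 5 inner root sheath keratin genes and of Krtap15-1, the hair shaft gene with the lowest change, are shown, because these genes moved together in both PND35 pools. Each run is the 100 bases upstream of the RefSeq start in build GRCr8, read in the direction of the gene, with matches to TATAAA in capitals.
Krt25: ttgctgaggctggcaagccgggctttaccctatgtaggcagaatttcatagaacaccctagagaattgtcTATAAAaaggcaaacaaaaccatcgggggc
Krt27: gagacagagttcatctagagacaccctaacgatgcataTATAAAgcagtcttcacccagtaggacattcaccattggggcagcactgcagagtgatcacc
Krt28: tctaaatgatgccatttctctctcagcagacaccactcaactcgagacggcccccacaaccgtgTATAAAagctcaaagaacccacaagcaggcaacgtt
Krt73: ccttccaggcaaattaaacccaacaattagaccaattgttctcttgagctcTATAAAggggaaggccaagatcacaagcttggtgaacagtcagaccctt
Krt72: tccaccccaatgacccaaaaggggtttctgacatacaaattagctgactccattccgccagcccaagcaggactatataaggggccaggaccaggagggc
Krtap15-1: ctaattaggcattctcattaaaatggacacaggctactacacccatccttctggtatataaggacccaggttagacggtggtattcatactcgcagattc
Krt25 lies at chr10:84771198-84771297, Krt27 at chr10:84800132-84800231, Krt28 at chr10:84824858-84824957, Krt73 at chr7:134815029-134815128, Krt72 at chr7:134799548-134799647 and Krtap15-1 at chr11:41616461-41616560 on the plus strand, the others on the minus strand. The search took TATAAA on both strands. It was found in 6 of the 8 tested inner root sheath genes and in 3 of the 14 tested hair shaft genes with a sequence, against 5.95% of 27457 RefSeq promoters over the same window. A match is a string of letters and was not tested as a site.

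Krt25, a type I keratin of the inner root sheath with a match 30 bases before its start, stood at 5.03 and 5.15 in the PND50 pools, against 10.48 and 10.59 in the PND35 pools. Its log2 change was -5.45 (SE 0.12, limma adjusted p = 3.5e-10, with 2 pools per age), a 43.6-fold lower level at PND50. The 12 pools of the other treatments lay between 4.86 and 5.36, so the PND50 vinclozolin pools were inside their range and the PND35 pools far above it. Krt27, its neighbour on chromosome 10, had 5.58 and 5.52 at PND50, against 9.77 and 9.51 at PND35 (-4.10, SE 0.10, adjusted p = 6.12e-10). Krt28 in the same stretch had 6.34 and 6.42 at PND50, against 9.13 and 9.13 at PND35 (-2.75, SE 0.09). The type II partners on chromosome 7 moved likewise. Krt73 had 6.42 and 6.51 at PND50, against 11.10 and 10.41 at PND35 (-4.29, SE 0.17). Krt72 had 5.76 and 5.69 at PND50, against 10.39 and 9.52 at PND35 (-4.23, SE 0.20). Padi3, the smallest change of the list, had 5.66 and 5.80 at PND50, against 7.25 and 6.58 at PND35 (-1.18, SE 0.16, adjusted p = 0.00218). Krt25 and Krt27 lay under the filter value of 5.661 at PND50, so if those probe sets read background there, their falls are at least this large.

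Hair shaft genes showed the same order of pools. Of 17 tested members 12 fell (1.64% of all genes did) and none rose. Their median was -1.45, against 0.16 in the mixture, -0.01 with genistein and 0.01 in controls. Of the 17, 2 were tested because of the PND35 vinclozolin pools, with a mean under the filter elsewhere. In 12 of these 12 and in 7 of the 8 inner root sheath genes, PND35 pool 1 was above PND35 pool 2. Krtap15-1, a keratin-associated protein, stood at 5.42 and 5.34 in the PND50 pools, against 10.99 and 10.10 in the PND35 pools (-5.16, SE 0.35, adjusted p = 4.62e-06). Krt85, a hair shaft keratin, had 7.13 and 7.20 at PND50, against 10.39 and 9.99 at PND35 (-3.03, SE 0.14). Dsg4, a desmosomal cadherin of the hair, had 5.37 and 5.55 at PND50, against 9.26 and 8.43 at PND35 (-3.38, SE 0.20). In all 3 the PND50 pools lay inside the range of the other treatments. The calcium-binding S100a3 (-3.31, SE 0.19) and Krt31 (-3.62, SE 0.24) also fell, as did Krtap1-5 (-3.73, SE 0.23) and Krtap14 (-3.10, SE 0.35), which are not on the list. Near-identical keratin and keratin-associated genes may share probe signal, which was not examined. Outside the vinclozolin groups, Krtap15-1 reached 6.82 in genistein PND35 pool 2, with 5.10 to 5.63 in the other 11 pools.

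**Figure D2:**
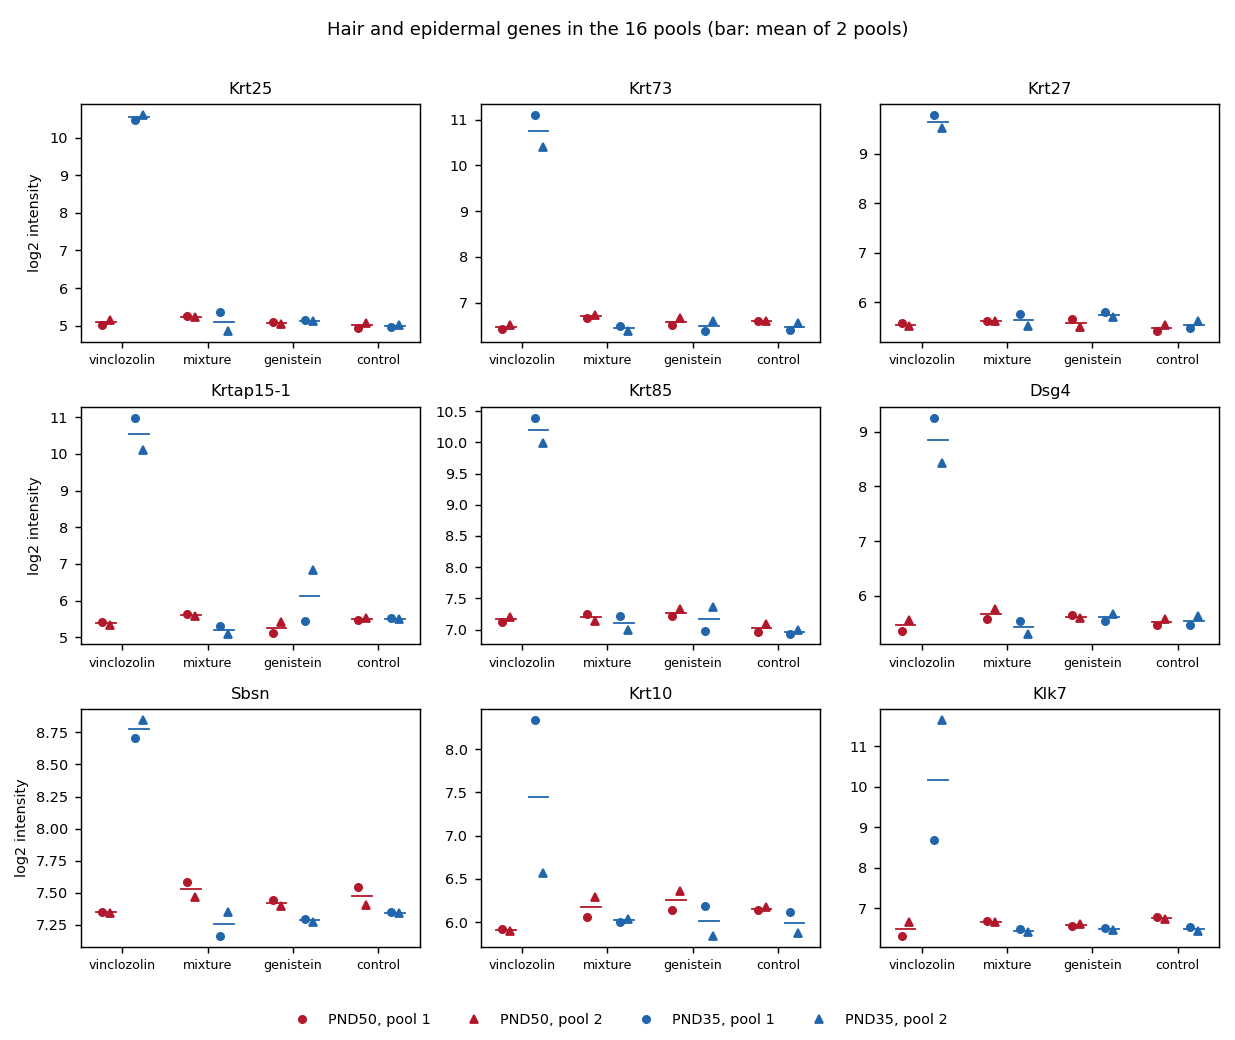
Log2 intensity of 9 hair and epidermal genes in each of the 16 pools, with PND50 (red) left of PND35 (blue) in each treatment, circles for pool 1, triangles for pool 2 and a bar at the mean of 2 pools. The PND35 vinclozolin pools stand above all others in each panel, with pool 1 higher for Krt73, Dsg4 and Krt10 and pool 2 higher for Klk7.

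Of 14 tested epidermal genes 9 fell (1.64% of all genes did) and none rose (median -1.20). Of the 14, 1 was tested because of the PND35 vinclozolin pools. Sbsn, suprabasin of the cornifying epidermis, stood at 7.35 and 7.34 in the PND50 pools, against 8.71 and 8.85 in the PND35 pools (-1.43, SE 0.08, adjusted p = 9.27e-07). Dsc3, a desmocollin of lower epidermal layers, had 7.26 and 7.02 at PND50, against 8.42 and 8.66 at PND35 (-1.40, SE 0.16). Krt17, a keratin of hair follicles and stressed epidermis, had 8.26 and 8.24 at PND50, against 9.80 and 10.04 at PND35 (-1.68, SE 0.21). In these 3 genes both PND35 pools were above every other pool. Ovol1, an epithelial transcription factor (-0.87, SE 0.11), and Trex2, a nuclease of keratinocytes (-1.01, SE 0.10), fell as well.

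The classical keratins of surface epidermis were highest in PND35 pool 1 or stayed low. Krt10 stood at 5.92 and 5.90 in the PND50 pools, against 8.33 and 6.56 in the PND35 pools (-1.54, SE 0.39, adjusted p = 0.0587), and did not pass, although both PND35 pools were above all others. Its partner Krt1 was under the filter, at 4.85 and 4.90 at PND50, against 7.60 and 5.39 at PND35. Krt2, of the upper epidermis, was under the filter value in all 16 pools, with 4.62 and 4.71 at PND50 and 4.87 and 4.51 at PND35. Klk7, a protease that sheds the outermost skin cells, had 6.31 and 6.66 at PND50, against 8.67 and 11.64 at PND35 (-3.67, SE 0.62, adjusted p = 0.0123). Its change was -2.18 without PND35 pool 2 and -5.15 without PND35 pool 1, and the call for Klk7 ended without PND50 pool 1 or pool 2 (adjusted p = 0.0791 and 0.0829). A set drawn up after the results were seen took the hair and skin lists with every other keratin or keratin-associated gene. It is called the hair and skin set here, although it also holds keratins of the gland such as Krt8. In it 36 of 62 tested genes fell (1.64% of all genes did) and none rose. Of the 62, 7 were tested because of the PND35 vinclozolin pools, and 6 of these are among the 36. Of these 36, 28 were higher in PND35 pool 1 than in PND35 pool 2, and Klk7, Sbsn and Dsc3 were higher in pool 2. The mean of the epidermal list was 7.278 and 7.316 in the PND50 vinclozolin pools, 8.405 and 8.564 in the PND35 vinclozolin pools and 7.025 to 7.364 in the other 12.

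Of 17 cholesterol synthesis genes 2 fell and none rose, and 14 were negative (median -0.46, against -0.07 in the mixture and 0.01 in controls). Without PND35 pool 2 the median was -0.237. Sqle, squalene epoxidase, stood at 7.40 and 7.39 in the PND50 pools, against 7.71 and 8.04 in the PND35 pools (-0.48, SE 0.09, adjusted p = 0.0168). Cyp51, which demethylates lanosterol, had 9.18 and 9.09 at PND50, against 9.65 and 9.94 at PND35 (-0.66, SE 0.12, adjusted p = 0.0198). PND35 pool 2 was higher than pool 1 for both. Idi1, an isomerase early in the pathway, had 7.12 and 7.04 at PND50, against 7.65 and 11.66 at PND35 and did not pass (-2.58, SE 0.84, adjusted p = 0.121). Without PND35 pool 2 the change of Cyp51 was -0.51 and did not pass, and the call for Cyp51 also ended without either PND50 pool. Without PND35 pool 2 the change of Sqle was -0.31, and without either PND50 pool Sqle did not pass (adjusted p = 0.0816 and 0.119). Elovl3, a fatty acid elongase of sebaceous glands and brown fat, had 5.51 and 5.60 at PND50, under the filter value of 5.661. At PND35 it had 7.85 and 6.50 (-1.62, SE 0.30, adjusted p = 0.0196). Of 7 brown adipocyte genes tested it was the only one called. Of the 7, 1 was tested because of the PND35 vinclozolin pools, with a mean under the filter elsewhere. The change of Elovl3 was -0.94 without PND35 pool 1 and -2.29 without PND35 pool 2, and its call too ended without either PND50 pool (adjusted p = 0.0964 and 0.119).

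Of 22 milk protein and milk fat globule genes, 7 rose (1.14% of all genes did) and none fell, with a median of 0.40, against 0.38 in the mixture, 0.02 with genistein and 0.22 in controls. The mean of the list was 9.775 and 10.02 in the PND50 pools, against 8.87 and 9.782 in the PND35 pools, so the ages overlapped in that mean. Slc34a2, a phosphate transporter of alveolar cells, stood at 10.35 and 10.52 in the PND50 pools, against 8.80 and 9.13 in the PND35 pools (1.47, SE 0.23, adjusted p = 0.0079). Btn1a1, butyrophilin of the milk fat globule, had 11.87 and 11.85 at PND50, against 10.93 and 11.03 at PND35 (0.88, SE 0.13, adjusted p = 0.00368). In both genes the 2 PND50 vinclozolin pools were the highest of the 16. Csn3, kappa-casein, had 12.14 and 12.46 at PND50, against 11.34 and 11.61 at PND35 (0.83, SE 0.13). Elf5, a transcription factor of alveolar progenitors, had 10.71 and 11.02 at PND50, against 9.95 and 10.12 at PND35 (0.83, SE 0.13). Here too both PND50 vinclozolin pools were above all others.

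The milk proteins with the widest range between pools were at or short of the threshold. Wap, whey acidic protein, stood at 9.75 and 10.13 in the PND50 pools, against 7.71 and 8.86 in the PND35 pools, and passed narrowly (1.66, SE 0.40, adjusted p = 0.04996). Its change in controls was -0.38 and did not pass (adjusted p = 0.635), and the difference between both changes did not pass either (2.04, adjusted p = 0.369). Csn2, beta-casein, had 11.26 and 11.69 at PND50, against 8.41 and 10.34 at PND35 (2.10, SE 0.98, adjusted p = 0.26). Csn2 lay between 7.75 and 10.47 in the other 12 pools, with both ends of that range among the pools of 1 group, genistein at PND35. The change of Wap was 1.08 without PND35 pool 1 and 2.24 without PND35 pool 2. Wap lost its call when any 1 pool was left out (adjusted p between 0.0508 and 0.278), except PND35 vinclozolin pool 2 (0.0144).

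**Figure D3:**
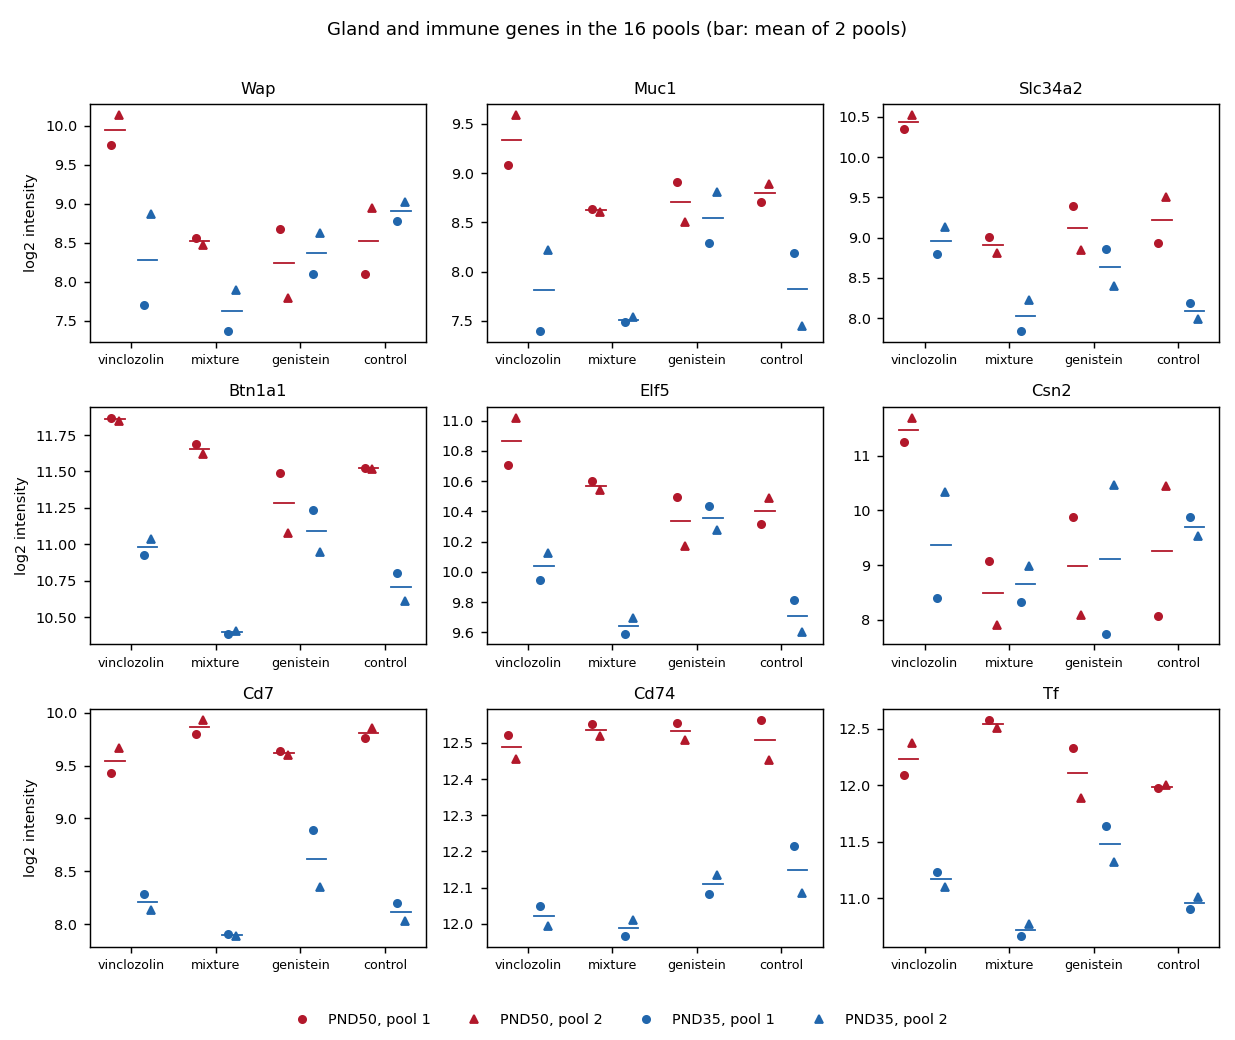
Log2 intensity of 9 gland and immune genes in each of the 16 pools, with PND50 (red) left of PND35 (blue), circles for pool 1, triangles for pool 2 and a bar at the mean of 2 pools. The PND50 vinclozolin pools are the highest of the 16 for Wap, Muc1, Slc34a2, Btn1a1, Elf5 and Csn2, while Cd7, Cd74 and Tf are higher at PND50 in every treatment.

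Few luminal or basal genes were called. Of 24 luminal genes 2 rose, Elf5 and Muc1, and 20 were positive. Their median was 0.20, against 0.50 in the mixture, -0.05 with genistein and 0.42 in controls. Muc1, a mucin of the apical luminal surface, stood at 9.08 and 9.59 in the PND50 pools, against 7.40 and 8.22 in the PND35 pools (1.53, SE 0.29, adjusted p = 0.0216). Of 16 basal and myoepithelial genes 1 fell and none rose. Their median was 0.12, against 0.10 in the mixture, -0.10 with genistein and 0.34 in controls. The one that fell was Krt14, a keratin of basal cells that epidermis and hair follicles also make, at 9.20 and 8.92 at PND50, against 9.76 and 10.66 at PND35 (-1.15, SE 0.27, adjusted p = 0.0433). Krt14 fell as many hair and skin genes did, and as a keratin gene it is itself a member of that set. It was higher in PND35 pool 2, while 28 of the 36 called genes of the set were higher in PND35 pool 1. The part of hair and skin in its change was not tested. The change of Krt14 lay between -1.60 and -0.70 when 1 pool was left out, with -0.70 without PND35 pool 2. Its call ended when any 1 pool was left out, except PND35 vinclozolin pool 1 and the control PND35 pools. Krt14 did not pass with array weights (adjusted p = 0.081), with an intensity trend and robust fit (0.0662) or with the vinclozolin arrays alone (0.319). Without PND50 pool 2 the adjusted p of Slc34a2, Csn3, Elf5 and Muc1 lay between 0.0922 and 0.182, and Muc1 also lost its call without PND35 pool 1 (adjusted p = 0.0713), while Btn1a1 passed without any 1 pool.

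Hormone receptors and local signals showed no gene past the test among 28 tested (median 0.01). Esr1, estrogen receptor alpha, stood at 10.39 and 10.48 in the PND50 pools, against 10.20 and 10.23 in the PND35 pools (0.22, SE 0.13, adjusted p = 0.388). Pgr, the progesterone receptor, had 9.23 and 9.71 at PND50, against 9.45 and 9.10 at PND35 (0.19, SE 0.32, adjusted p = 0.778), and its pools overlapped. Of 10 genes of an androgen-responsive list, Ndrg1 rose and Acsl3, an enzyme that activates fatty acids, fell (-0.39, adjusted p = 0.0415). Ndrg1, a stress and differentiation gene, had 12.19 and 12.16 at PND50, against 11.42 and 11.50 at PND35 (0.71, SE 0.13, adjusted p = 0.0169). Fkbp5, a co-chaperone of steroid receptors, had 7.84 and 8.03 at PND50, against 8.82 and 9.12 at PND35 (-1.03, SE 0.25, adjusted p = 0.0561), just short of the threshold. Slc38a3, a glutamine transporter, rose with both PND50 vinclozolin pools above all others, at 8.86 and 8.85, against 7.96 and 8.20 at PND35 and 7.74 to 8.46 in the other treatments (0.78, SE 0.17, adjusted p = 0.0357). Without PND50 pool 2 neither Ndrg1, Acsl3 nor Slc38a3 passed, and none of them passed without PND50 pool 1. Slc38a3 also lost its call without PND35 pool 1 or either mixture PND50 pool. Acsl3 lost its call when any 1 pool was left out, except the genistein and mixture pools at PND35. With array weights Acsl3 and Slc38a3 did not pass (adjusted p = 0.0962 and 0.0809).

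Some lymphocyte genes rose. Of 20 T and natural killer cell genes 4 rose (1.14% of all genes did) and none fell, and 19 were positive. Their median was 0.28, against 0.42 in the mixture, 0.34 with genistein and 0.22 in controls. Cd7, a surface protein of these cells, stood at 9.43 and 9.66 in the PND50 pools, against 8.29 and 8.14 in the PND35 pools (1.33, SE 0.14, adjusted p = 0.000406). The change of Cd7 was 1.97 in the mixture and 1.70 in controls, and the difference from controls did not pass (-0.36, adjusted p = 0.78). Nkg7, a granule protein of cytotoxic cells, had 7.67 and 7.66 at PND50, against 6.97 and 6.88 at PND35 (0.74, SE 0.11, adjusted p = 0.00607). Cd3e of the T cell receptor complex (0.52, SE 0.10) and the chemokine Xcl1 (0.47, SE 0.11) rose too. Of 9 B and plasma cell genes, Jchain, which joins antibody units (0.72, SE 0.15), and Fcrla, a B cell protein (0.50, SE 0.10), rose.

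Further genes that rose serve immune or other secreted functions. Cd74, the invariant chain of antigen presentation, stood at 12.52 and 12.46 in the PND50 pools, against 12.05 and 11.99 in the PND35 pools (0.47, SE 0.07, adjusted p = 0.00367), and was the only one called of 23 macrophage genes tested. Of 13 secreted and mucosal defence genes 2 rose and none fell, the mucin Muc15 (0.65, SE 0.13, adjusted p = 0.0232) and Tf. Tf, transferrin, had 12.09 and 12.37 at PND50, against 11.23 and 11.10 at PND35 (1.06, SE 0.14, adjusted p = 0.00269). Tacr1, the substance P receptor, had 8.87 and 9.25 at PND50, against 8.06 and 7.91 at PND35 (1.08, SE 0.18, adjusted p = 0.00965). The chemokine Cx3cl1 rose by 0.92 (SE 0.21, adjusted p = 0.0401) and Chrdl2, a secreted antagonist of bone morphogenetic proteins, by 1.06 (SE 0.17, adjusted p = 0.00765). Without PND50 pool 2 neither Muc15, Tacr1, Cx3cl1, Chrdl2, Nkg7, Cd3e, Xcl1, Jchain nor Fcrla passed, while Cd7, Cd74 and Tf passed without any 1 pool. Muc15, Cx3cl1, Cd3e, Xcl1, Jchain and Fcrla also lost their calls without PND50 pool 1, and without at least 1 PND35 vinclozolin pool. Cx3cl1, Xcl1 and Jchain lost theirs without some pools of other treatments too. With array weights Cx3cl1, Cd3e, Xcl1, Jchain and Fcrla did not pass (adjusted p between 0.0574 and 0.0839). When 1 pool was left out, the change of Cx3cl1 lay between 0.70 and 1.145 and that of Xcl1 between 0.35 and 0.60. Among 33 chemokines and receptors Cx3cl1 was the only one called, and of 25 interferon response genes tested none was called (median 0.14).

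The lipoxygenase Alox15 and some genes of red cells fell. Alox15, the arachidonate 15-lipoxygenase of eosinophils and some macrophages, stood at 7.66 and 7.28 in the PND50 pools, against 10.32 and 9.47 in the PND35 pools (-2.42, SE 0.31, adjusted p = 0.0019). It was lower at PND50 in every treatment, with a change of -2.83 in the mixture and -1.97 in controls. Of 14 erythroid genes 5 fell (1.64% of all genes did) and none rose. Their median was -0.46, against -0.88 in the mixture, -0.54 with genistein and -0.40 in controls. Alas2, which starts haem synthesis in red cell precursors, had 8.92 and 8.50 at PND50, against 10.43 and 9.67 at PND35 (-1.34, SE 0.23, adjusted p = 0.0123). Hbb, a beta-globin gene, had 11.40 and 11.15 at PND50, against 12.52 and 12.12 at PND35 (-1.04, SE 0.19, adjusted p = 0.0184). Slc4a1 (-1.40, SE 0.28), Ahsp (-1.56, SE 0.35) and Bpgm (-0.63, SE 0.14), which serve anion exchange, globin folding and oxygen release, fell as well. In all 5 erythroid genes PND35 pool 1 was above pool 2, and without it the change of Slc4a1 was -0.83. Without PND50 pool 2 none of Alas2, Hbb, Slc4a1 and Bpgm passed (adjusted p between 0.127 and 0.229).

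Fat and energy genes moved little. None of 22 white adipocyte genes was called, and 18 were negative (median -0.15, against -0.31 in the mixture and -0.23 in controls). Without PND35 pool 1 that median was 0.118. Of 33 subunits of oxidative phosphorylation, 31 were negative and 1 fell (median -0.19, against -0.32 in the mixture and -0.15 in controls). The one that fell was Ndufb3 of complex I, at 8.54 and 8.33 at PND50, against 8.74 and 8.82 at PND35 (-0.35, SE 0.08, adjusted p = 0.0433). Ndufb3 did not pass after quantile normalization (adjusted p = 0.0532) or median centring (0.0503). It also did not pass with array weights (0.104) or with the vinclozolin arrays alone (0.327). Its change lay between -0.45 and -0.25 when 1 pool was left out. The call of Ndufb3 ended when any 1 pool was left out, except PND50 vinclozolin pool 1 and the genistein PND35 pools. None of 20 collagen and fibrous matrix genes and of 16 endothelial genes was called, with medians of 0.03 and 0.04 that both fell below 0 without PND35 pool 2. The tissue inhibitor of metalloproteinases Timp2 rose, at 12.05 and 12.06 at PND50, against 11.69 and 11.65 at PND35 (0.38, SE 0.07, adjusted p = 0.0161), and without PND50 pool 2 it did not pass (adjusted p = 0.114).

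**Figure D4:**
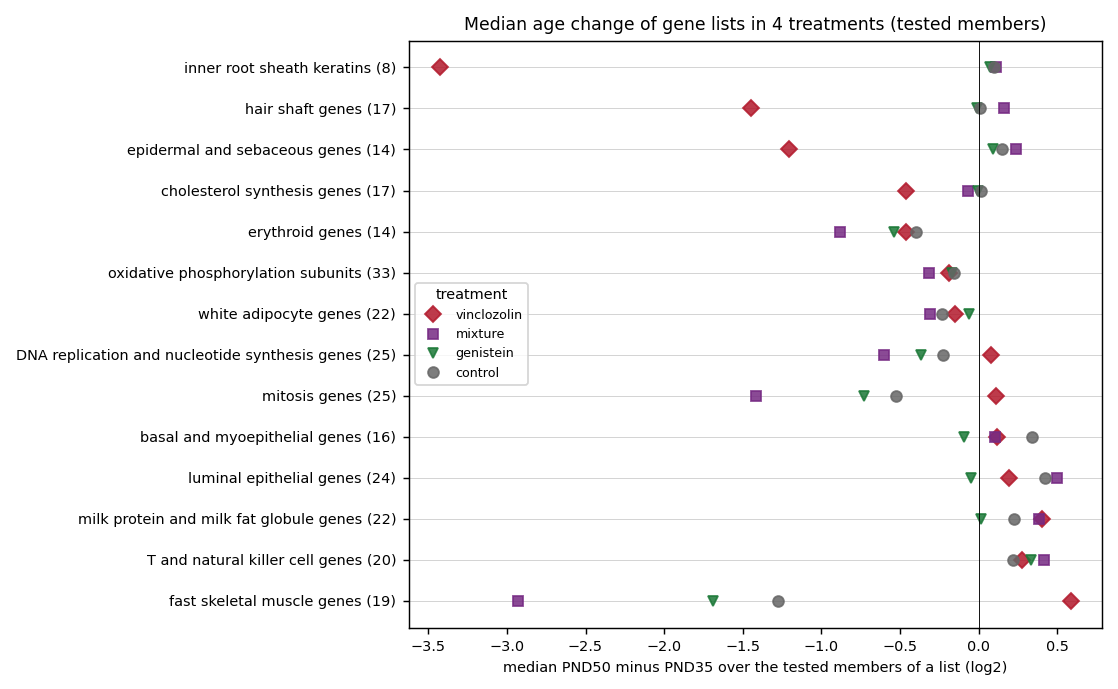
Median log2 age change (PND50 minus PND35) over the tested members of 14 gene lists, with the number of members in brackets and 1 symbol per treatment. The vinclozolin diamonds stand apart at -3.42 for inner root sheath genes, and on the other side of 0 from all other treatments for mitosis (0.11) and fast muscle (0.59) genes, where leaving out PND35 pool 1 or PND50 pool 1 turned the sign.

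Mitosis genes and fast muscle genes were not called with age after vinclozolin, and their median changes lay above 0, while those of the other treatments lay below 0. None of 25 mitosis genes was called and 23 were positive (median 0.11, against -1.41 in the mixture, -0.73 with genistein and -0.53 in controls). Without PND35 pool 1 the median was -0.12, and without PND35 pool 2 it was 0.40. Kif11, a motor of the mitotic spindle, stood at 8.10 and 8.05 in the PND50 pools, against 7.58 and 8.11 in the PND35 pools (0.23, SE 0.20, adjusted p = 0.577), and its pools overlapped. In controls Kif11 had 7.214 and 7.831 at PND50, against 8.305 and 8.004 at PND35 (-0.63, adjusted p = 0.153). In the mixture it had 6.94 and 6.98 at PND50, against 8.61 and 8.56 at PND35 (-1.63, adjusted p = 0.00054). The age change of Kif11 after vinclozolin exceeded the mean of the other 3 treatments by 1.25 (SE 0.24, adjusted p = 0.035). None of 25 DNA replication genes was called either (median 0.08, against -0.60 in the mixture and -0.23 in controls), and their median lay between -0.012 and 0.19 when 1 pool was left out.

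All 19 fast muscle genes had a positive change after vinclozolin and none was called (median 0.59, against -2.93 in the mixture, -1.69 with genistein and -1.28 in controls). The mean of the list was 9.82 and 8.52 in the PND50 vinclozolin pools, 8.37 and 8.71 in the PND35 vinclozolin pools, and 6.54 to 7.96 in the other 6 PND50 pools. PND50 pool 1 was therefore the highest of the 8 pools at that age, and PND50 pool 2 lay between the PND35 pools. Without PND50 pool 1 the median change of the list was -0.055, and without PND50 pool 2 it was 1.23. Tnnt3, fast skeletal troponin T, stood at 11.16 and 10.30 at PND50, against 9.36 and 9.97 at PND35 (1.07, SE 0.43, adjusted p = 0.201). Pvalb, the calcium-binding parvalbumin of fast fibres, had 8.72 and 7.61 at PND50, against 7.54 and 7.80 at PND35 (0.50, SE 0.48, adjusted p = 0.601). Myh4, a fast myosin heavy chain, had 9.84 and 8.46 at PND50, against 8.25 and 8.93 at PND35 (0.56, SE 0.66, adjusted p = 0.676).

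**Figure D5:**
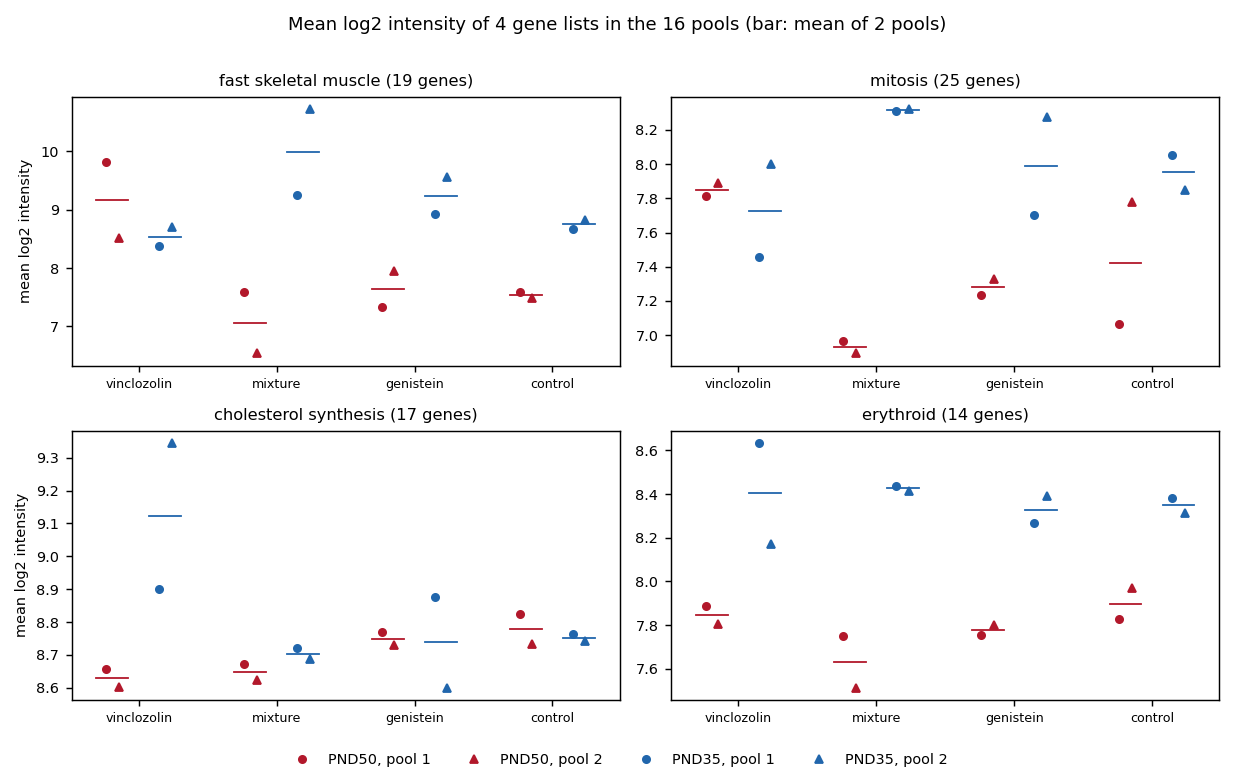
Mean log2 intensity of 4 gene lists in each of the 16 pools, with PND50 (red) left of PND35 (blue), circles for pool 1, triangles for pool 2 and a bar at the mean of 2 pools. In the vinclozolin groups the fast muscle list reaches 9.82 in PND50 pool 1, the cholesterol list is highest in PND35 pool 2, and the erythroid list is lower at PND50 in every treatment.

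The age change after vinclozolin was then set against that of untreated controls. It differed in 45 of 11796 genes (0.381%), all with a lower value after vinclozolin, and no gene passed in the other direction, where 353 had an unadjusted p under 0.05. In 44 of the 45 both PND35 vinclozolin pools lay above the other 14 pools, beside 1.87% of all genes tested. The call itself favours that position, so the count is a description. Members of the hair and skin set, which counts every keratin gene, made up 25 of the 45. That set, drawn up after the results were seen, held 62 of the 11796 genes tested, 7 of them tested because of the PND35 vinclozolin pools. The largest differences were those of Krt25 (-5.45, SE 0.18), Krtap15-1 (-5.16, SE 0.50), Krt73 (-4.41, SE 0.24), Krt72 (-4.27, SE 0.28), Krt27 (-4.03, SE 0.15) and Krt31 (-3.60, SE 0.34). The one exception was Anxa8, an annexin of basal and ductal epithelium, whose change was 0.10 after vinclozolin and 1.28 in controls (difference -1.18, SE 0.22, adjusted p = 0.0465). The 3 genes with the smallest p in the other direction were Tcf7l1, a repressor in Wnt signalling (0.61, adjusted p = 0.099), the histone gene H2ax (0.91, adjusted p = 0.135) and the calcium channel gene Cacna1g (0.45, adjusted p = 0.163), and none passed. Tcf7l1 itself rose with age after vinclozolin, at 10.31 and 10.49 at PND50, against 9.98 and 9.80 at PND35 (0.51, SE 0.09, adjusted p = 0.0136), a call that ended without PND50 pool 2 (adjusted p = 0.132). The count was 186 genes without PND35 pool 1, 10 of them with a higher value after vinclozolin. It was 77 without PND35 pool 2, 3 of them higher, and 11 with a filter at the 50th percentile.

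Against the mixture, which held the same dose of vinclozolin, the age change differed in 389 genes (3.3%), 234 with a higher (1.98% of all genes) and 155 with a lower value (1.31%) after vinclozolin alone. Krt25 led the lower side (-5.57), since the mixture pools stood at 5.25 and 5.23 at PND50 and 5.36 and 4.86 at PND35. On the higher side were 16 of 19 fast muscle genes and 22 of 25 mitosis genes. The mixture pools differed among themselves in muscle genes. The mean of the fast muscle list was 7.589 and 6.538 in the mixture PND50 pools, against 9.254 and 10.73 in the mixture PND35 pools. Mixture PND35 pool 2 was the highest and mixture PND50 pool 2 the lowest of the 16 pools in that mean. Ttn, titin of the muscle sarcomere, had a difference of 4.64 (adjusted p = 0.0289), Pvalb of 4.62 and Kif11 of 1.85. The change in the mixture itself ran across 32.7% of all genes, against 2.78% after vinclozolin alone. The count was 77 without vinclozolin PND50 pool 1, which held the highest muscle values of its age, 179 without vinclozolin PND50 pool 2, 241 without either control PND35 pool, 65 without mixture PND35 pool 2, 132 without mixture PND50 pool 1 and 64 without mixture PND50 pool 2.

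Against the mean of the other 3 treatments the age change differed in 89 genes (0.754%), 21 with a higher (0.178%) and 68 with a lower value (0.576%) after vinclozolin. In 63 of the 68 both PND35 vinclozolin pools were above the other 14, beside 1.87% of all genes tested. Here too the call itself favours that position. Of the 21, the 6 with the largest difference were Pvalb (3.18, SE 0.55), Tnnt3 (2.96, SE 0.50), the small heat shock protein gene Hspb6 of muscle (2.02, SE 0.40), Myf6, a muscle transcription factor (1.53, SE 0.30), Kif11 and the centromere gene Cenpi (0.98, SE 0.20). Cenpi stood at 6.246 and 6.224 in the PND50 vinclozolin pools, against 5.998 and 6.23 in the PND35 pools. The count was 249 without vinclozolin PND35 pool 1, 45 without vinclozolin PND50 pool 1, all of them lower, 142 without mixture PND35 pool 1, 136 without control PND50 pool 2 and 58 without either genistein PND50 pool 1 or mixture PND50 pool 2.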

How the data were processed

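Biotin-labelled complementary DNA of mammary gland RNA was hybridised to Affymetrix arrays, per the labels' protocols. The log2 values were deposited by the authors with 1 column per array. For the log base, background correction, normalization and summarization, the step is not given in the sources consulted. The values run between 2.2 and 13.95 and the array medians between 7.05 and 7.145, so they were read as normalized log2 intensities. Probe sets were named through the platform's gene annotation. Of 27342 probe sets 15097 have 1 symbol, 323 several and 11922 none, and only the first kind was named. Of the named probe sets 15067 had an identifier in the RefSeq table, whose symbols were used. The labels give no batch.

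Each of 14324 symbols was represented by its brightest probe set (mean of the 16 arrays), and 11796 genes above the 25th percentile of all probe sets (5.661) were tested. A linear model with 1 mean for each of the 8 groups (8 residual degrees of freedom) was fitted to all arrays with lmFit and eBayes of limma 3.58.1 in R 4.3.3. Tests were two-sided, with Benjamini-Hochberg adjustment over the 11796 genes and a threshold of 0.05. Differences of age changes are contrasts of the same fit. Self-tests used simulated data. Plots came from matplotlib 3.10.9 under Python 3.11.15.

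Genes named are the 12 highest and 12 lowest changes among called genes without overlap, the 6 highest and 6 lowest of each difference (the 3 with the smallest p where none passed), and up to 4 members of a described list beside members that show a list which did not pass. The text names some of these. Named outside this rule, after their values were seen, were Krt1, Krt2, Krt10, Krt17, Padi3, Tgm3, Ahsp, Anxa8, Idi1, Csn2, Esr1, Pgr and the genes high in 1 pool only, while Krt8 and Adipoq served as the label check. The members and the 30 gene lists (684 genes, 572 on the array, 525 tested) were chosen with earlier results of these data known. Alternatives changed the dim-gene filter, the normalization, the rule for several probe sets, the unit tested, the variance model, array weights, the replicate block, the arrays in the fit, the fold threshold and, in turn, each pool. Replicates of the vinclozolin groups did not pair by number (correlation of their deviations 0.0783). Promoter sequences are RefSeq's in build GRCr8.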

Additional observations from a re-analysis of the deposited data

Results flagged for a closer look

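Age changes that differed between treatments, each by the test of the difference itself, are given here as values with n = 2 pools per age and treatment. The age change after vinclozolin differed from that of controls in 45 genes, from that of the mixture in 389 genes and from the mean of the other 3 treatments in 89 genes (limma, adjusted over all genes tested).

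Against controls the differences with the lowest values, all in hair genes, were -5.45 for Krt25, -5.16 for Krtap15-1, -4.41 for Krt73, -4.27 for Krt72, -4.03 for Krt27 and -3.60 for Krt31 on the log2 scale. Against the mean of the other 3 treatments, Klk7 had a difference of -3.87, with 8.67 and 11.64 in the PND35 vinclozolin pools. On the positive side stood Pvalb at 3.18, Tnnt3 at 2.96, Hspb6 at 2.02, Myf6 at 1.53, Kif11 at 1.25 and Cenpi at 0.98. Without vinclozolin PND50 pool 1, no gene passed on the positive side of this comparison.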

How the results depend on the processing

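The 328 genes called with age after vinclozolin were 533 over all probe sets, 148 with array weights, 25 with only the vinclozolin groups in the fit, 126 with a change of at least 1.5-fold, and 67 to 407 without 1 pool. The 45 genes that differed from controls were 11 with a filter at the 50th percentile, 98 over all probe sets, 20 without hair and skin genes (an alternative chosen after seeing the data) and 38 to 186 without 1 pool. The 389 genes that differed from the mixture were 597 over all probe sets, 256 with only the groups compared and 64 to 552 without 1 pool. The 89 genes that differed from the mean of the other 3 treatments were 43 with a filter at the 50th percentile, 171 over all probe sets, 58 without hair and skin genes and 45 to 249 without 1 pool. All other alternatives run stayed within 1.5 times these counts. The cause of these shifts was not tested, apart from the smaller sets of genes or arrays that some alternatives hold by construction.

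Replicate numbers did not pair the vinclozolin pools (r = 0.0783, with -0.366 to 0.301 over all pairs of groups). With the replicate number as a block the count with age was 297, of which 275 were shared with the 328, and the counts of the differences were 47 against controls, 413 against the mixture and 98 against the mean of the other 3. Krt14, Ndufb3, Acsl3 and Xcl1 did not pass with the block (adjusted p between 0.0524 and 0.0562).

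Of 51 called genes named by the rule in the report, 38 did not pass in the fit of the vinclozolin arrays alone, 11 did not pass with array weights, 20 without PND50 pool 1 and 30 without PND50 pool 2. Krt25, Krt27, Krt28, Krt31, Krt72, Krt73, Krt85, Krtap1-5, Krtap15-1, Dsg4, S100a3, Sbsn and Cd7 passed under every alternative run on single genes. The changes of Pvalb (-0.055 to 1.05), Myh4 (-0.13 to 1.25) and Kif11 (-0.042 to 0.49) changed sign when 1 pool was left out. Levels near the filter value of 5.661 may be background, and 2 pools per group limit the precision.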

Other observations

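PND35 vinclozolin pool 2 alone was high in further genes, singled out after their values were seen. Lpo, the lactoperoxidase gene of milk and other secretions, stood at 7.96 and 8.34 in the PND50 pools, against 7.57 and 12.12 in the PND35 pools (-1.69, SE 0.97, adjusted p = 0.364). Gusb, beta-glucuronidase, had 7.89 and 7.69 at PND50, against 8.16 and 11.35 at PND35 (-1.96, SE 0.67, adjusted p = 0.134). Rdh16, a retinol and steroid dehydrogenase, had 7.49 and 7.46 at PND50, against 7.61 and 11.31 at PND35 (-1.98, SE 0.78, adjusted p = 0.188). Hsd17b6, another steroid dehydrogenase, had 7.74 and 7.68 at PND50, against 7.79 and 10.97 at PND35 (-1.67, SE 0.67, adjusted p = 0.191). Klk6, a kallikrein protease, had 6.27 and 6.33 at PND50, against 6.59 and 10.13 at PND35 (-2.06, SE 0.74, adjusted p = 0.152). In all 5 the other pool of that group lay near or below the PND50 pools, and none of the 5 passed.

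Mast cell genes showed no call among 13 tested after vinclozolin (median -0.14, against -0.10 in the mixture, -0.14 with genistein and -0.40 in controls). Of 9 nerve and Schwann cell genes 1 rose and none fell (median 0.07, against 0.04 in the mixture and -0.03 in controls). Of 14 fatty acid synthesis genes 1 fell and none rose (median 0.18, against 0.11 in the mixture and 0.33 in controls), and that median was -0.48 without PND35 pool 2. None of 14 slow muscle genes was called (median 0.10, against -0.83 in the mixture and 0.02 in controls), and the median was -0.067 without PND50 pool 1.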
